A study of Mus musculus with 10 samples.

Results

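The canonical Wnt target and feedback genes were followed in MC3T3-E1 cells cultured with β-ecdysterone, a plant sterol. They are 10 genes grouped by their known role (Axin2, Rnf43, Znrf3, Nkd1, Nkd2, Notum, Apcdd1, Lef1, Tcf7 and Sp5), out of 29583 genes in the table. They were chosen with earlier results of these data known. All 10 were found in the table by symbol. The cells were of a clonal line of osteoblast precursors from newborn C57BL/6 mouse skull, used at the third generation. The series' source field instead calls them bone marrow mesenchymal stem cells. All groups shared these cells, and the labels name no engineered allele. Cells at 0 μM had 1 library on day 5 and 1 on day 10. Treated cells had 1 library each at 100, 150 and 200 μM on each of these days, 6 in all. The remaining 2 libraries, A-5 and B-4, were labelled only as untreated, with no time. The RNA was polyadenylated mRNA read on the Illumina platform. The labels mention repeated extractions of RNA, but the table held 1 library per dose and day. Libraries at different doses were therefore taken as replicates of treated cells. Nothing states that libraries came from separate cultures, so p-values measure only the spread between these libraries, which may be technical.

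Canonical Wnt signalling is turned on when a secreted Wnt ligand binds a Frizzled receptor and its coreceptor Lrp5 or Lrp6. β-Catenin, encoded by Ctnnb1, then escapes destruction and enters the nucleus, where it joins transcription factors of the TCF/LEF family on target genes. Many of the targets act back on the pathway and restrain it at the membrane, in the cytoplasm or outside the cell, so their mRNA is widely used as a readout of the pathway. In bone, the pathway is known to favour osteoblast formation.

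The letters that TCF/LEF factors are known to prefer contain the core CTTTGA, and the promoters of the members were searched for it on both strands (TCAAAG on the other strand). RefSeq promoter windows of 250 bases before the start of transcription, on GRCm38.p6, held 7 of the 10 members with 12 start sites. The core was present in 13.8% of all 32851 such windows, and 1.37% held at least 2 matches. Of the 12 windows, 2 held it, with 2 matches each, namely that of Sp5 and that of start site 4 of Lef1. The 2 windows are shown beside those of Axin2 and Nkd2, whose fitted rises were the largest of the members with counts at 0 μM and whose windows held no match. Capitals mark the core, and each sequence is on the strand of its gene, 5′ to 3′.
Axin2, chr11:108920099-108920348, plus strand: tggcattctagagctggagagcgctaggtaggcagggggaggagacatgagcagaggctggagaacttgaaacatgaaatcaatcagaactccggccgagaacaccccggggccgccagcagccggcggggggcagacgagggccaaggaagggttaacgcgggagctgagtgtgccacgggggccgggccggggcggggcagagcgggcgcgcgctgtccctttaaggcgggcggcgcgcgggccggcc
Nkd2, chr13:73847632-73847881, minus strand: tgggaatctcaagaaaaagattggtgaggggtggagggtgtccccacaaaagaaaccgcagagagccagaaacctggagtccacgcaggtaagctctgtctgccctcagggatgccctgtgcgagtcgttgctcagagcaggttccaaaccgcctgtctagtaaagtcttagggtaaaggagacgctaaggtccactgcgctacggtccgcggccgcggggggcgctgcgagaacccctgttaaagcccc
Lef1, start site 4, chr3:131156044-131156293, plus strand: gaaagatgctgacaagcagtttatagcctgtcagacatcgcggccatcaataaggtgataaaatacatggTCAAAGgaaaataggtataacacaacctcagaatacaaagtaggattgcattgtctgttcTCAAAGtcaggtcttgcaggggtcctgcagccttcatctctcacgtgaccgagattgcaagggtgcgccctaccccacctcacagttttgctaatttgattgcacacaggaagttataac
Sp5, chr2:70474673-70474922, plus strand: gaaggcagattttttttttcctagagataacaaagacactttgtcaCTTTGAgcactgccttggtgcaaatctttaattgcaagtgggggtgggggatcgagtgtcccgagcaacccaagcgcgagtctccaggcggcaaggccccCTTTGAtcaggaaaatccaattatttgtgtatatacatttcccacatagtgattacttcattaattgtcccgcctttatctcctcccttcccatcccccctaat
The matches lay 120 and 180 bases before the start in Lef1 and 104 and 204 bases before the start in Sp5. None of the 4 windows overlapped an exon of the GENCODE M21 annotation, and that of Lef1 lay within the gene. The window of Axin2 was 69.2% G and C with 24 CG pairs, against a median of 52.4% and 6 pairs over all windows. A match is a run of letters and not a measured binding site.

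The libraries held between 27108562 and 58218009 counts. Where a gene had 0 counts, as many as 3 could have been missed, and 3 counts stood for 0.0499 to 0.118 CPM (counts scaled to each library's normalized size). Such limits and all counting intervals cover counting error only. Of the osteoblast markers, 8 of 8 had counts in every group, and their summed level was 4384 to 5124 FPKM (reads scaled to transcript length and library size) at 0 μM and 3431 to 6152 FPKM in treated cells. Alpl, Bglap and Ibsp, which mark maturing osteoblasts, stayed under 1 FPKM at 0 μM and reached it in at least 1 treated library and in at least 1 untreated library. Lepr, a defining marker of bone marrow stroma, was under 1 FPKM in all groups, as was Nes. Of the 7 listed stroma markers, 5 reached 1 FPKM at 0 μM, 5 in treated cells and 3 in the untreated libraries, each in at least 1 library. The 7 summed to 173 to 203 FPKM at 0 μM and 114 to 141 FPKM in treated cells. The 6 osteocyte markers summed to 44.6 to 51.0 and 27.99 to 59.09 FPKM and the 5 chondrocyte markers to 18.3 to 20.2 and 17.73 to 30.01 FPKM, in the same order of groups. The 5 adipocyte markers summed to 1.79 to 2.02 and 1.58 to 4.04 FPKM and the 5 skeletal muscle markers to 0.149 to 0.196 and 0.422 to 0.850 FPKM. The 5 macrophage markers summed to 1.16 to 1.26 and 0.716 to 1.05 FPKM and the 5 endothelial markers to 0.257 to 0.280 and 0.785 to 1.19 FPKM. The part of other cells in the results was not tested. The untreated libraries stood apart from each other. Ctnnb1 was at 588 CPM in A-5 and 1575 CPM in B-4, and Axin2 at 1.47 and 11.4 CPM. Because they also carry no time, A-5 and B-4 entered only the alternatives. All fits that used them had no term for day, unlike the main comparison with 0 μM.

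Treated cells were first compared with 0 μM to ask which of the target and feedback genes changed with β-ecdysterone. Axin2, Nkd1, Nkd2, Rnf43, Lef1 and Tcf7 were upregulated, with fitted rises from 3.05-fold for Lef1 to 42.3-fold for Nkd2, Nkd1 set apart because its fold is only a lower bound. Znrf3 and Apcdd1 were lower in all treated libraries but by less than the fold limit, Notum did not pass the test, and Sp5 was not detected. Calls required an absolute log2 fold change (log2FC) over 1 together with an adjusted p (Benjamini-Hochberg) below 0.05 in the quasi-likelihood test of edgeR, adjusted for day. Standard errors of the log2FC are given as SE. Of the 9 members that passed the filter on low counts, 6 were called higher and 0 lower. Over all 16794 genes tested, 13.4% were called higher and 5.98% lower. Nkd1 and Nkd2 passed the filter only through the treated libraries, in which they were high. With a minimum of 10 counts per library, 4 of 6 members were called, all higher, among 1099 higher and 737 lower of 13268 genes. Adjusted p was under 0.05 for 8 of the 9, whatever the fold, against 43.3% of all genes. The median log2FC was 1.93 over the 9 members, or 1.72 with Nkd1 at its lower bound, and 0.05 over all genes. All 6 treated libraries lay above both 0 μM libraries for 6 of the 9 and below both for 2, against 27% and 25.7% of all genes (52.7% in either direction). For Nkd1, 1 of these 6 members, the library at 100 μM on day 5 was at 0.067 CPM. That is under the 0.0949 CPM that 3 counts stood for at 0 μM on day 10. With limma on log2(FPKM + 1), a scale that understates low genes, Axin2, Rnf43 and Tcf7 were called, 3 of the 9. The balance over all genes turned on that scale, with 612 of the 1138 genes called being lower, and it was near even with no fold limit, with 3790 higher and 3490 lower. In bulk RNA, fewer cells of a type and less RNA per cell cannot be told apart.

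**Figure D1:**
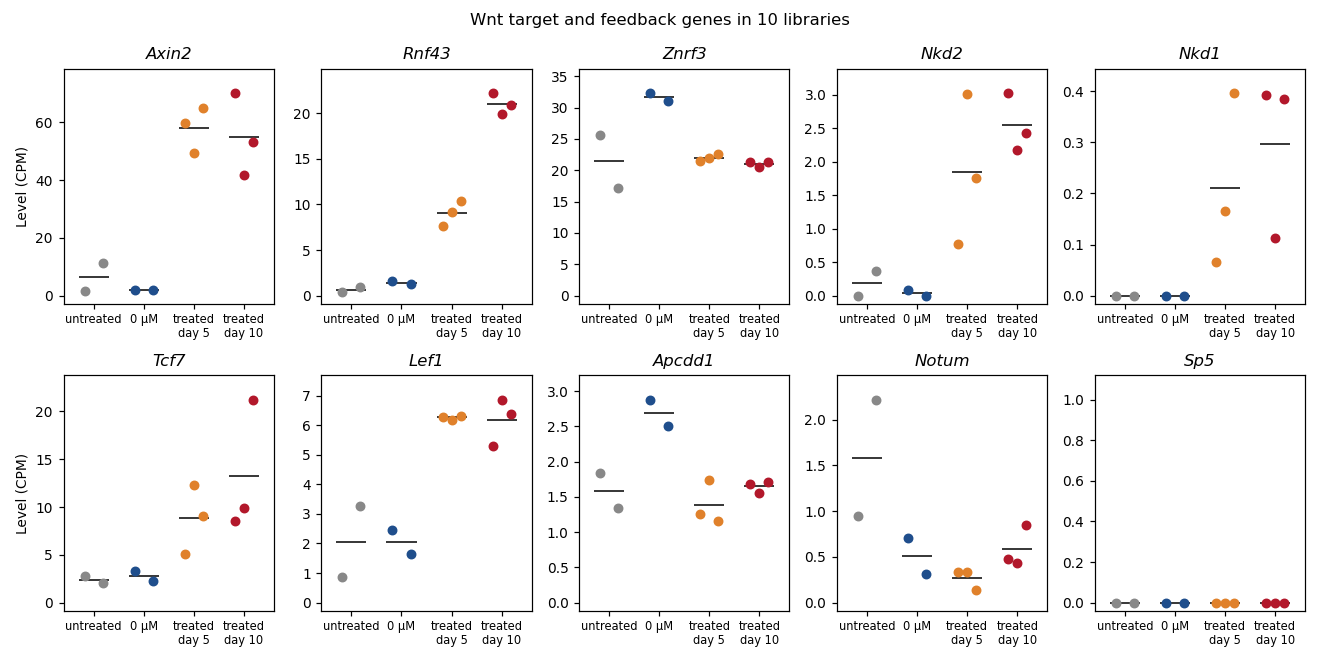
Level of each of the 10 genes in CPM (y axis, linear, its own scale in each panel) in the 2 untreated, 2 0 μM, 3 treated day 5 and 3 treated day 10 libraries (x axis). Each point is 1 library and each line the group's mean, points within a group run from the lowest dose to the highest, and the treated libraries lie above both 0 μM libraries for Axin2, Rnf43, Nkd2, Nkd1, Tcf7 and Lef1, below them for Znrf3 and Apcdd1, and at 0 for Sp5. Nkd1 had 0 counts at 0 μM and only 2 counts at 100 μM on day 5, so its order is not secure.

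Axin2 (ENSMUSG00000000142, chromosome 11, 108920349 to 108950783) encodes a scaffold of the complex that destroys β-catenin and is among the most general Wnt targets. It was at 2.05 CPM at 0 μM on day 5 and 1.99 CPM on day 10. In treated cells on day 5 it was at 59.6, 49.5 and 64.9 CPM at 100, 150 and 200 μM. On day 10 it was at 70.2, 41.9 and 53.1 CPM at these doses. The groups did not overlap, and on each day the lowest of the treated values was at 150 μM. The 150 μM library was also the deepest of each day, at 57220036 counts on day 5 and 58218009 on day 10, and the part of depth was not tested. The mean at 0 μM was 2.02 ± 0.0400 CPM (SD, n = 2) and that of treated cells 56.5 ± 10.4 CPM (SD, n = 6). The log2FC was 4.80 (SE 0.25, 95% interval 4.25 to 5.36, edgeR adjusted p = 1.5e-06).

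Rnf43 and Znrf3 encode related membrane ubiquitin ligases that remove Frizzled receptors from the cell surface, and they lay on opposite sides of 0 μM. Rnf43 (ENSMUSG00000034177, chromosome 11, 87662722 to 87735539) was at 1.56 CPM at 0 μM on day 5 and 1.23 CPM on day 10. In treated cells it was at 7.62, 9.19 and 10.3 CPM on day 5 and at 22.2, 19.9 and 20.9 CPM on day 10, in the order 100, 150 and 200 μM. The groups did not overlap, and neither did the treated libraries of the 2 days. This was a rise of 9.21-fold (SE of the log2FC 0.32, 95% interval 2.48 to 3.92 on the log2 scale, edgeR adjusted p = 5.55e-05). Its log2FC was 4.08 without 0 μM on day 5 and 2.53 without 0 μM on day 10. Znrf3 (ENSMUSG00000041961, chromosome 11, 5276324 to 5444847) was at 32.3 and 31.1 CPM at 0 μM on days 5 and 10. The treated libraries lay between 20.5 and 22.6 CPM, with a median of 21.4 CPM, so all 6 were below both. The log2FC of -0.56 (SE 0.08, edgeR adjusted p = 0.000534) did not reach the fold limit. Against the untreated libraries, Znrf3 overlapped, since A-5 was at 25.6 CPM and B-4 at 17.2 CPM, and with them in place of 0 μM its log2FC was 0.01 (adjusted p = 0.956).

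Nkd1 and Nkd2, the naked cuticle proteins, bind Dishevelled and dampen the signal inside the cell. Nkd2 (ENSMUSG00000021567, chromosome 13, 73818534 to 73847631) held 4 counts in the 0 μM library of day 5 and 0 in that of day 10. In treated cells on day 5 it had 23, 181 and 53 counts at 100, 150 and 200 μM, and on day 10 it had 77, 116 and 126 counts. Scaled to depth, the treated libraries held 2.19 ± 0.854 CPM (SD, n = 6) and 0 μM held 0.0394 ± 0.0558 CPM (SD, n = 2). The lowest treated library, at 100 μM on day 5, was at 0.765 CPM and the higher 0 μM library at 0.0789 CPM. Nkd2 had a log2FC of 5.40 (SE 0.81, edgeR adjusted p = 0.000586), and the ratio of the pooled counts was 47.2 (95% exact interval 18.3 to 173.7). Without 0 μM on day 5 its control is at 0 counts, and the fitted value of 9.68 is then no measure of size. Without 0 μM on day 10 it was 4.52.

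Nkd1 (ENSMUSG00000031661, chromosome 8, 88521354 to 88594884) had 0 counts in both 0 μM libraries and in both untreated libraries. In treated cells on day 5 it had 2, 10 and 12 counts at 100, 150 and 200 μM, and on day 10 it had 10, 6 and 20 counts. All 6 treated libraries therefore held reads, at 0.253 ± 0.155 CPM (SD, n = 6), which was at least 3.29-fold higher than the limit of 3 counts per library at 0 μM. The adjusted p was 0.0148 from edgeR. The call was lost without 0 μM on day 5 (adjusted p = 0.0724) and without 0 μM on day 10 (adjusted p = 0.0796), and the level is near the limit of detection.

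Notum and Apcdd1 act outside the cell or at its surface. Notum (ENSMUSG00000042988, chromosome 11, 120653788 to 120661175) encodes a secreted enzyme that strips the lipid from Wnt ligands. It was at 0.710 CPM at 0 μM on day 5 and 0.317 CPM on day 10, against 0.132 to 0.847 CPM in treated cells with a median of 0.382 CPM. The groups overlapped, and the log2FC of -0.44 had a 95% interval of -1.71 to 0.83 (adjusted p = 0.559 from edgeR). Without 0 μM on day 5 the sign turned, to 0.89 (adjusted p = 0.383). Its exons share 708 and 210 bases with antisense genes, and the strand of the counting is not stated, so such reads cannot be told apart. The untreated libraries held 0.949 and 2.22 CPM, above every treated library. With them in place of 0 μM, and with no term for day, Notum was downregulated, at a log2FC of -1.86 (edgeR adjusted p = 0.0377).

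Apcdd1 (ENSMUSG00000071847) encodes a membrane protein that binds ligand and coreceptor and inhibits signalling. It was at 2.88 and 2.50 CPM at 0 μM on days 5 and 10. On day 5 the treated libraries were at 1.26, 1.75 and 1.16 CPM at 100, 150 and 200 μM, and on day 10 at 1.69, 1.56 and 1.71 CPM. All 6 were below both 0 μM libraries, while the untreated libraries, at 1.83 and 1.34 CPM, overlapped with them. This log2FC of -0.83 (SE 0.23, 95% interval -1.35 to -0.30, edgeR adjusted p = 0.0174) did not reach the fold limit. Without 0 μM on day 10 it did, at -1.04 (adjusted p = 0.0431).

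Lef1 and Tcf7 encode DNA-binding partners of β-catenin and are themselves targets. Lef1 (ENSMUSG00000027985, chromosome 3, 131110471 to 131224356) was at 2.45 and 1.65 CPM at 0 μM on days 5 and 10. In treated cells it was at 6.29, 6.18 and 6.31 CPM on day 5 and 5.31, 6.86 and 6.39 CPM on day 10, in the order of dose. Relative to its mean it varied least of the upregulated members, with 6.22 ± 0.507 CPM (SD, n = 6). The log2FC was 1.61 (SE 0.20, 95% interval 1.15 to 2.06, edgeR adjusted p = 0.000217). Its exons share 1208 bases with an antisense gene and those of Axin2 share 209 bases with another.

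Tcf7 (ENSMUSG00000000782, chromosome 11, 52252371 to 52283014) was at 3.31 and 2.22 CPM at 0 μM on days 5 and 10. In treated cells it was at 5.12, 12.3 and 9.09 CPM on day 5 and 8.57, 9.89 and 21.2 CPM on day 10, in the order of dose. The groups did not overlap, but the treated libraries spread widely, at 11.03 ± 5.50 CPM (SD, n = 6). The log2FC was 1.93 (SE 0.47, 95% interval 0.87 to 2.99, edgeR adjusted p = 0.00876). The call was lost without 0 μM on day 10, where the log2FC was 1.42 (adjusted p = 0.116), and without 0 μM on day 5 it was 2.58.

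Sp5 (ENSMUSG00000075304, chromosome 2, 70474923 to 70477729), a transcription factor and a direct target in embryonic cells, had 0 counts in all 10 libraries and was not tested. Its level was thus not detectable at this depth.

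**Figure D2:**
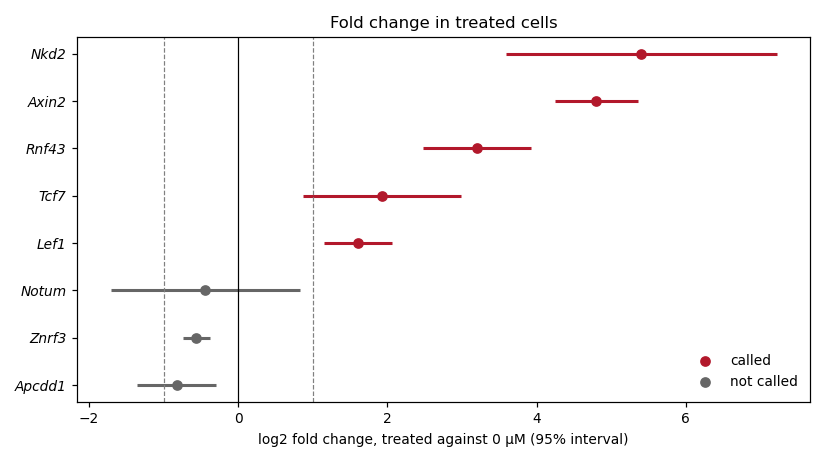
Log2 fold change of treated cells against 0 μM (x axis) for 8 members (y axis), with 95% intervals derived from the edgeR F statistic as lines and the limits of -1 and 1 dashed. Axin2, Nkd2, Rnf43, Tcf7 and Lef1 were called (red), and Znrf3, Apcdd1 and Notum were not (grey). Nkd1 is left out because it has no counts at 0 μM and Sp5 because it was not tested.

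The 8 libraries compared also fell into a shallower class (27108562 to 31300928 counts) and a deeper class (48951468 to 58218009 counts). Each held 1 library at 0 μM and 3 treated libraries. The 0 μM library was that of day 10 in the shallower class and that of day 5 in the deeper class. Both classes held treated libraries of both days, so ratios within a class mix the days. Within the classes the ratio of treated to 0 μM CPM was 32.5 and 23.5 for Axin2, 10.9 and 10.7 for Rnf43, 3.63 and 2.65 for Lef1, and 3.43 and 4.37 for Tcf7. It was 0.701 and 0.657 for Znrf3 and 0.548 and 0.581 for Apcdd1. Since the treated and 0 μM libraries of these 6 members do not overlap, the direction within each class was already fixed, and the ratios describe only the size. Axin2, Nkd1, Nkd2, Lef1, Tcf7 and Rnf43 were also higher in each treated library than in both untreated libraries. For Nkd1 this order is not secure. At 100 μM on day 5 it was at 0.067 CPM, under the 0.0982 and 0.101 CPM that 3 counts stood for in A-5 and B-4. Axin2 in B-4, at 11.4 CPM, lay under the lowest treated value of 41.9 CPM, and Lef1 in B-4, at 3.26 CPM, under that of 5.31 CPM.

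The rank of the members by level per length also differed between the groups. At 0 μM Znrf3 had the highest FPKM, 5.05 ± 0.165 (SD, n = 2), and Axin2 had rank 5 with 0.450 ± 0.0378. In treated cells Axin2 was first with 13.1 ± 2.21 FPKM (SD, n = 6), and its lowest library, 9.45 FPKM, was above the highest of Tcf7, 8.11 FPKM. Tcf7 followed with 4.57 ± 2.03 FPKM, Znrf3 with 3.33 ± 0.225 FPKM, Rnf43 with 3.08 ± 1.26 FPKM and Lef1 with 1.57 ± 0.161 FPKM, each neighbouring pair overlapping in range. Nkd2 with 0.476 ± 0.187 FPKM and Apcdd1 with 0.471 ± 0.0840 FPKM lay below Lef1 and did not differ beyond their spread. Notum, with 0.161 ± 0.0945 FPKM, and Nkd1, with 0.0754 ± 0.0774 FPKM, overlapped and were lowest of the members with reads. The value of Nkd1 is uncertain on this scale, since 1 CPM stood for 0.177 to 0.575 FPKM depending on the library.

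Treated cells on day 10 were next compared with those on day 5 to ask whether the members changed with time in the presence of β-ecdysterone. Of the 9 members, 1 was called higher and 0 lower. It was Rnf43, with 9.05 ± 1.37 CPM on day 5 and 21.0 ± 1.18 CPM on day 10 (SD, n = 3 each). Its log2FC was 1.22 (SE 0.14, 95% interval 0.89 to 1.54, edgeR adjusted p = 0.00928 with dose as a factor), while 1.27% of all genes were called, 1.09% higher and 0.18% lower. At 0 μM the ratio of day 10 to day 5 for Rnf43 was 0.793, from 1 library each. Axin2 had a log2FC of -0.10 between the days, with a 95% interval of -0.37 to 0.17 (adjusted p = 0.689). Tcf7 had a log2FC of 0.54 (adjusted p = 0.318) and Notum one of 1.07 (adjusted p = 0.33). Without the 150 μM library of day 5, or without that of day 10, Tcf7 was also called (adjusted p = 0.00411 and 0.00702).

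The effect of treatment on day 10 was tested against that on day 5 as an interaction. The 0 μM arm held 1 library on each day, so the spread came from the treated libraries alone and 0 μM was assumed to vary like them. None of the 9 members was called by edgeR. Over all genes edgeR called 0.0112%. Rnf43 was 4.89 to 6.64-fold above 0 μM across doses on day 5 and 16.1 to 17.99-fold above it on day 10. The interaction of 1.55 on the log2 scale (SE 0.34) had an edgeR adjusted p = 0.353. Notum lay at 0.186 to 0.469 times 0 μM in the 3 libraries of day 5 and at 1.36 to 2.68 times 0 μM in the 3 of day 10, with an interaction of 2.27 (SE 0.94, adjusted p = 0.575). At 0 μM its own ratio of day 10 to day 5 was 0.446, on 36 and 10 counts.

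A slope of level on dose was fitted to the 6 treated libraries. None of the 9 members was called by edgeR (0.006% of all genes were) or by DESeq2 (2 of 16664 genes were). An unadjusted p under 0.05 from edgeR was held by 1 member and by 391 of all 16664 genes. That member was Tcf7, with a slope of 1.10 on the log2 scale per 100 μM (SE 0.34, edgeR adjusted p = 0.997). On day 10 its level was 3.87, 4.47 and 9.58 times that at 0 μM at 100, 150 and 200 μM, and on day 5 it was 1.55, 3.70 and 2.74 times that at 0 μM. The highest dose was thus the highest library on day 10 and not on day 5. Dose was also tied to depth. The 100 μM libraries were of the shallower class and the 150 μM libraries of the deeper class on both days. At 200 μM the library was shallower on day 5 and deeper on day 10. Tcf7 averaged 7.59 CPM in the shallower treated libraries and 14.5 CPM in the deeper ones. The part of depth in the slopes was not tested. When genes with at least 1 count in total were kept, Tcf7 passed (adjusted p = 0.000432), and 108 genes of all passed there. Axin2 had a slope of -0.15 (95% interval -0.63 to 0.34, adjusted p = 0.997), which turned to 0.23 (adjusted p = 1) without 100 μM on day 10.

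**Figure D3:**
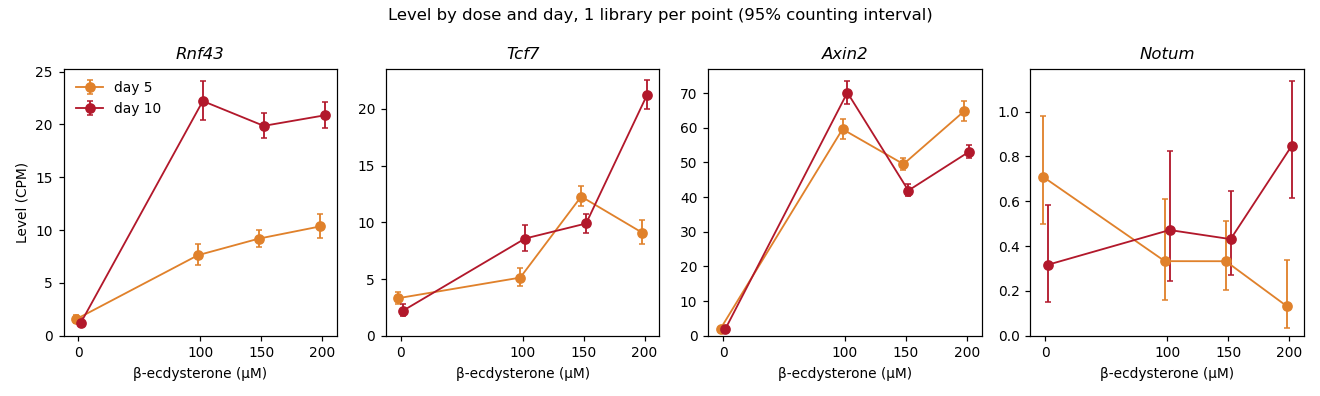
Level in CPM (y axis, linear from 0) against the dose of β-ecdysterone in μM (x axis) for Rnf43, Tcf7, Axin2 and Notum on day 5 (orange) and day 10 (red). Each point is 1 library with its 95% counting interval, and points are shifted sideways by day. Rnf43 is at 7.62 to 10.3 CPM on day 5 and 19.9 to 22.2 CPM on day 10, Tcf7 reaches 21.2 CPM at 200 μM on day 10, Axin2 is at 41.9 to 70.2 CPM in treated cells, and the intervals of Notum are wide.

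The rest of the Wnt pathway was described from lists of 133 genes by role. Of these, 103 passed the filter, 18 were called higher, 11 lower and 74 were not called. With a minimum of 10 counts per library, 10 were called higher and 11 lower of 88, and with no fold limit 25 higher and 29 lower of 103, so the excess of higher calls depended on the filter and the fold limit. The median log2FC was 0.13, against 0.05 over all genes. The target and feedback genes with 6 of 9 called higher stood beside 18 of 103 in the rest of the pathway and 13.4% of all genes. Nkd1 and Nkd2 were among these 6 and passed the filter only through the treated libraries, in which they were high. With a minimum of 10 counts per library, 4 of 6 members were called higher, beside 10 of 88 and 1099 of 13268 genes. The members and lists were chosen with earlier results of these data known, so the contrast is only descriptive. With A-5 and B-4 replacing 0 μM, 16 of 102 were called (12 higher and 4 lower). With B-4 alone added to 0 μM, a fit chosen after the data were seen, 16 of 100 were called. Over all genes the calls fell too, from 3259 of 16794 to 1538 of 16012 and 1516 of 15649 in these fits. The rule named up to 3 called genes of each list with the largest fold change.

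Among the Wnt ligands, 9 of 19 were tested, 3 were called higher and 2 lower. Wnt4 rose from 0.393 ± 0.197 CPM (SD, n = 2) at 0 μM to 7.99 ± 3.36 CPM (SD, n = 6), Wnt11 had a log2FC of 3.45 (SE 0.40) and Wnt6 one of 1.60 (SE 0.26). Wnt4 and Wnt11 are often linked to signalling without β-catenin. Of the R-spondins and genes of ligand export, 4 of 6 were tested, with 1 higher and 1 lower. Porcn, the enzyme that adds the lipid to Wnt ligands, rose from 9.37 ± 0.718 to 116 ± 29.9 CPM. Rspo2, whose secreted product keeps Rnf43 and Znrf3 away from Frizzled receptors, fell from 63.9 ± 16.3 to 13.2 ± 9.57 CPM, with a log2FC of -2.74 (SE 0.44, edgeR adjusted p = 0.000837). Its log2FC was -3.73 without 0 μM on day 5 and -1.36 without 0 μM on day 10, and that of Wnt4 was 5.28 and 3.50. With A-5 and B-4 replacing 0 μM, Porcn was not called (adjusted p = 0.315), and it was at 8.81 CPM in A-5 and 105 CPM in B-4.

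Among the receptors, 16 of 18 were tested, 4 were called higher and 0 lower. Fzd9, a Frizzled receptor, rose from 0.231 ± 0.148 to 3.56 ± 0.553 CPM, and Fzd7, another, from 30.2 ± 0.0250 to 115.5 ± 34.1 CPM. Lgr5, a receptor of R-spondins and a Wnt target itself, had 2 counts at 0 μM and 56 counts in treated cells, a ratio of 9.17 (95% exact interval 2.42 to 77.6). Its adjusted p was 0.0431 from edgeR and 0.0657 without 100 μM on day 5, 0.0836 without 200 μM on day 5, 0.199 without 0 μM on day 5 and 0.154 without 0 μM on day 10. With A-5 and B-4 replacing 0 μM, Fzd9 was not called (adjusted p = 0.11), and its log2FC of 3.87 became 4.76 without 0 μM on day 5.

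Among the secreted and membrane antagonists, 9 of 16 were tested, 3 were called higher and 0 lower. Dkk2, which binds the Lrp coreceptors, rose from 0.138 ± 0.0283 to 5.80 ± 2.77 CPM, with a log2FC of 5.30 (SE 0.54, edgeR adjusted p = 5.77e-05). Wif1, which binds Wnt ligands, lay between 6.89 and 164.1 CPM in treated cells. Its log2FC of 7.88 became 9.38 without 0 μM on day 5 and 5.82 without 0 μM on day 10. Sost, the osteocyte inhibitor of Lrp coreceptors, had 77 counts in treated cells, held by 3 of the 6 libraries, and 0 at 0 μM, which was at least 3.38-fold higher than the limit of 3 counts per library. Its call was lost without 0 μM on day 10 (adjusted p = 1), and without 150 or 200 μM on day 10 it was not tested.

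Of the cytoplasmic transducers, 21 of 22 were tested, 2 were called higher and 2 lower. Ctnnb1, which encodes β-catenin, rose from 643 ± 31.5 CPM (SD, n = 2) to 1702 ± 74.1 CPM (SD, n = 6), a log2FC of 1.40 (SE 0.11, edgeR adjusted p = 1.25e-05). Dact1, a Dishevelled-binding protein, had a log2FC of 1.87 (SE 0.20) and its relative Dact2 one of -1.46 (SE 0.17). Of the nuclear partners, all 16 were tested and 1 was called higher. This was Tle1, a corepressor of TCF/LEF factors, at 1.32 (SE 0.12). With A-5 and B-4 replacing 0 μM, Ctnnb1 (adjusted p = 0.151), Dact1 (adjusted p = 0.174), Dact2 (adjusted p = 0.0524) and Tle1 (adjusted p = 0.782) were not called.

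Other reported targets of the pathway did not move as one. Of 36 listed, 28 were tested, 4 were called higher and 6 lower, with a median of 0.25. Tnfrsf19, a receptor of the TNF family, rose from 0.409 ± 0.175 to 125.5 ± 72.1 CPM, with a log2FC of 7.92 (SE 0.63, edgeR adjusted p = 1.42e-05). It was 9.33 without 0 μM on day 5, 6.92 without 0 μM on day 10 and 4.85 with A-5 and B-4 replacing 0 μM. Fosl1 and Jun, subunits of the AP-1 transcription factor, fell, with log2FC of -3.62 (SE 0.21) and -2.16 (SE 0.12). With A-5 and B-4 replacing 0 μM, these 3 were called in the same direction, Fosl1 at -2.11 and Jun at -1.30, as was Tbxt, and 5 others of the 10 (Ccn5, Birc5, Met, Bambi and Cldn1) were not called. Ccn2, a matricellular growth factor, turned from -1.15 to 2.34 (edgeR adjusted p = 0.00731). Tbxt and these 6 genes were chosen after their values were seen.

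**Figure D4:**
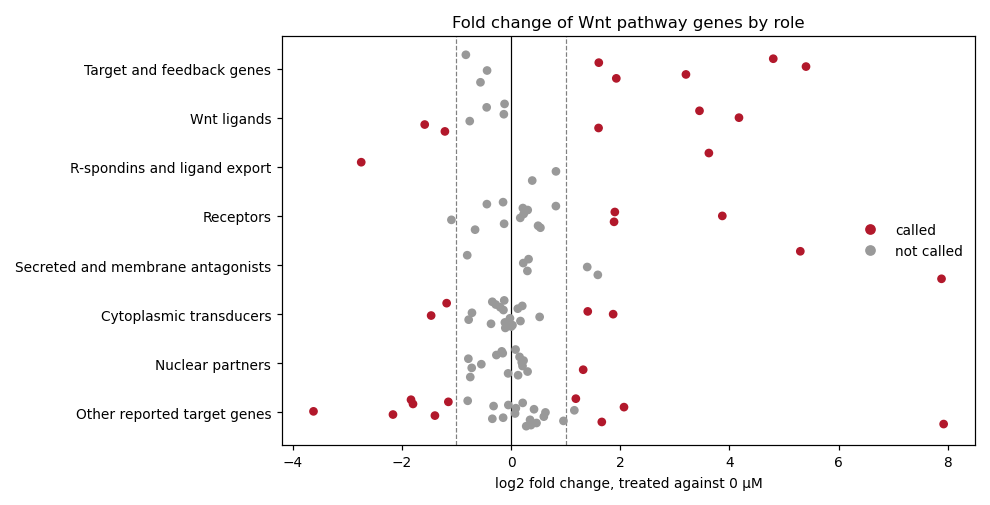
Log2 fold change of treated cells against 0 μM (x axis) for 108 genes tested, by role in the pathway (y axis), each point 1 gene, called genes in red, others in grey, and the limits of -1 and 1 dashed. The 5 called target and feedback genes drawn lie between 1.61 and 5.40, and the other reported targets lie on both sides of 0, from -3.62 to 7.92. Nkd1, Lgr5, Sost and Nrcam, with 3 or fewer counts at 0 μM, are left out.

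Genes whose pattern was most like that of an upregulated member were found by Pearson's r of log2 CPM over the 10 libraries, which share the step between 0 μM and treated cells. The nearest to Axin2 was Kcnt1 (r of 0.994), and the nearest to Rnf43 were Col3a1, Tnc and Nrep (r from 0.991 to 0.993), all of which rose. Igfbp5, Nfib and Tmem100 were nearest to Nkd2 (r from 0.985 to 0.987), and Sash1, Fzd9 and Auh to Lef1 (r from 0.977 to 0.983). Ccdc38, Galnt16 and Alpk2 were nearest to Tcf7 (r from 0.960 to 0.975), and Jaml, Asprv1 and Myo15 to Nkd1 (r from 0.949 to 0.955). Among the 6 upregulated members, r ran from 0.765 for Lef1 with Tcf7 to 0.960 for Axin2 with Nkd2.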

How the data were processed

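The authors deposited 1 table with read counts per gene, not normalized, and FPKM values (the authors' scaling to length and library size) for 10 libraries of MC3T3-E1 cells. The submitters' processing notes name HISAT2 2.0.4 and GATK 3.2-2, and the counting program, genome build, annotation and strand setting are not given in the sources used here. The table also holds 13 comparisons by the authors (p-values and fold changes), which were not used. Columns were matched to libraries by the code in the title, and no 2 libraries were identical.

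Counts were tested in R 4.3.3 with edgeR 4.0.16 (TMM, filterByExpr, quasi-likelihood test) over all genes. The alternatives used DESeq2 1.42.0 and limma 3.58.1 on log2(FPKM + 1). Treated cells were compared with 0 μM with day as a covariate, days within treated cells with dose as a factor, and dose as a slope per 100 μM with day as a covariate. The interaction used 4 groups. Fits with A-5 or B-4 had no day covariate. The fits were also run on simulated counts in which only genes with ample counts were changed. Members with few counts, such as Nkd1 and Notum, were thus not covered. CPM values use TMM library sizes. Exact 95% intervals cover counting error, with Poisson limits for the CPM of a library and Clopper-Pearson limits for ratios of pooled counts. For pattern likeness, log2 CPM had a prior count of 2. The fold and p limits are those of the study. Positions are from GENCODE M21 (GRCm38) by Ensembl identifier. Coordinates of Apcdd1 and part of the pattern likeness are not reported here. The members and the gene lists were chosen with earlier results of these data known. All 10 members are named, and of each other list up to 3 called genes with the largest fold change.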

Additional observations from a re-analysis of the deposited data

Results flagged for a closer look

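Notum was lower than 0 μM in all 3 treated libraries of day 5 and higher than 0 μM in all 3 of day 10. The difference between the effects of the days was 2.27 on the log2 scale and did not pass correction over all genes (adjusted p = 0.575 from edgeR). The values rest on 4 to 44 counts per library, and 0 μM had 36 counts on day 5 and 10 on day 10.

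The untreated library B-4, which entered no main comparison, held 11.4 CPM of Axin2 (95% interval 10.2 to 12.6), above the 1.99 and 2.05 CPM at 0 μM and the 1.47 CPM of A-5. It also held 2.22 CPM of Notum (95% interval 1.71 to 2.82), above 0 μM and every treated library. In B-4, Porcn was at 105 CPM, Tnfrsf19 at 8.09 CPM and Fosl1 at 7.93 CPM, against 8.81, 0.687 and 72.7 CPM in A-5. The labels give no time for either library, and the part of culture time in this difference was not tested.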

How the results depend on the processing

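The count of 6 members called higher in treated cells was within 1.5 times under 13 of 14 alternatives (the depth class, A-5 alone and B-4 alone were added after the data were seen) and was 3 with limma on log2(FPKM + 1), a scale that understates low genes. With 1 library left out, the members called in either direction lay between 5 and 6 and those called higher between 4 and 6. The lowest, 4 higher and 1 lower (Apcdd1), came without 0 μM on day 10. Axin2 and Rnf43 were called under all 22 alternatives run for each. Tests against the fold limit (glmTreat) lost Nkd1 (adjusted p = 0.0621) and Tcf7 (adjusted p = 0.0997). The other Wnt genes called, 29 in all, became 54 with no fold limit (25 higher and 29 lower), 21 with at least 10 counts in every library (10 higher and 11 lower), 16 against the untreated libraries, 16 with them added to 0 μM and 16 with B-4 alone added, and lay between 23 and 30 with 1 library left out. Over all genes, the 3259 called became 7280, 1836, 1538, 1739 and 1516 in the same order of settings, up to B-4 alone added. For the days the count of 1 lay between 1 and 2 with 1 library left out. Leaving out either library of a dose gave nearly the same fit there. For dose the count of 0 became 1 with genes of at least 1 count in total, where 108 of all 25868 genes were called. It became 4 (3 higher and 1 lower) with 0 μM included in the slope, which then holds the step from 0 μM. In that fit 2090 of all 16794 genes were called. The count for dose was 0 with each library left out. For the interaction the count was 0 under all alternatives run.

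The sign turned for Znrf3 against the untreated libraries (0.014), for Notum with 1 library left out (between -1.38 and 0.89), and for the slope of Axin2 with 0 μM included (2.12) and with 1 library left out (between -0.43 and 0.23). Scaling moved the median of all genes from 0.05 (TMM) to -0.01 (library totals) and 0.05 (DESeq2 size factors). With 1 library left out of 0 μM, the lone library is assumed to vary like the treated ones. Depth limits Nkd1, Nkd2, Notum and Sp5. The comparison of days matched each dose across the days. No pairing by replicate was possible because the labels and columns carry no replicate numbers.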
